A study of Homo sapiens with 12 samples.

Results

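The 8 genes described here are ID1, ID2, ID3, ID4, SMAD6, SMAD7, BAMBI and BMP2, known targets of bone morphogenetic protein (BMP) signalling and 1 of its ligands. They were picked by gene name among the chromosome entries of a table of 46931 genes measured by RNA sequencing in 12 libraries. All libraries were of MCF10A, an immortalised human mammary epithelial line of genotype WT, grown with horse serum, insulin, hydrocortisone and EGF, and each group held 3 libraries, a, b and c. The group siYT_XMU received 11 nM of siRNA sets that target YAP and TAZ and, from 48 h after transfection, 5 µM XMU-MP1 for 6 h, while siC_XMU received control siRNA at 22 nM and the same XMU-MP1. The group siYT_DMSO received the YAP and TAZ siRNA and then DMSO for 6 h, and siC_DMSO received control siRNA and DMSO. XMU-MP1 inhibits MST1 and MST2, the kinases at the top of the Hippo pathway, and YAP and TAZ are the coactivators which that pathway restrains. All groups come from 1 cell line, and whether 11 nM is the dose of each siRNA set or of all of them is not stated. The siRNA dose may thus differ between siYT and siC, and its effect cannot be told apart from that of the knockdown.

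BMP ligands bind paired type I and type II receptor kinases, which phosphorylate SMAD1, SMAD5 and SMAD9, and these enter the nucleus with SMAD4. There they switch on a compact set of early genes, among which the ID genes are the best known. ID proteins lack a DNA-binding region and hold E proteins, the partners of many lineage-specific transcription factors, away from DNA. SMAD6, SMAD7 and BAMBI are also induced by the pathway and damp it, the first pair inside the cell and BAMBI as a receptor without a kinase.

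Depth was 8243351 to 67953633 counts per library, and levels are CPM, which are counts scaled to library size with TMM, unless stated. Library c of siYT_XMU stood apart from the others. It was the shallowest, with 35% of its counts on ribosomal RNA against 1.02 to 8.35% in the other libraries and 15135 genes detected against 17950 to 20704, and a count of 0 in it allows up to 0.622 CPM. Among the others this share was 1.86 to 8.35% in siYT libraries and 1.02 to 2.52% in siC libraries. Its part in the knockdown comparisons was not tested. Results that use siYT_XMU are therefore given with library c and, where the call of a BMP pathway gene changes, without it. Other values moved too, and only some of them are given without it. The siRNA targets were lower where the labels place the knockdown. YAP1 averaged 9.86 ± 2.49 CPM in siYT_DMSO and 206 ± 15.4 CPM in siC_DMSO, and WWTR1, the gene of TAZ, averaged 4.14 ± 0.427 CPM in siYT_DMSO and 32.3 ± 7.37 CPM in siC_DMSO (SD, n = 3 each). The transcription factor gene TP63, which the study concerns, averaged 3.14 ± 0.979 CPM in siC_XMU and 26.5 ± 3.56 CPM in siC_DMSO (SD, n = 3 each). All 12 epithelial markers checked had counts. Their sums were 14200 to 24200 CPM in siYT_XMU and 7310 to 9420 CPM in siC_XMU. In DMSO they were 7390 to 19900 CPM in siYT and 8440 to 9960 CPM in siC. With the knockdown in DMSO, KRT6A, KRT17 and CDH1 were called higher and KRT5, CDH3 and EPCAM lower. With it in XMU-MP1, KRT6A, KRT17, CDH1 and EGFR were called higher and KRT5 and EPCAM lower. With XMU-MP1, 2 were called lower and 0 higher in control siRNA, and 0 after the knockdown. Endothelial markers summed to 2 to 8.49 CPM in siYT_XMU, 0.922 to 1.37 CPM in siC_XMU, 0.918 to 2.17 CPM in siYT_DMSO and 1.97 to 3.82 CPM in siC_DMSO, with ERG at 0 in every library and KDR in 10. In XMU-MP1 the endothelial sums of siYT did not overlap those of siC, and of the 3 of 7 that were tested PECAM1 (0.558 to 8.49 CPM in siYT_XMU, 0.0802 to 0.349 CPM in siC_XMU; edgeR adjusted p = 0.0104) and VWF (0 to 0.947 CPM in siYT_XMU, 0 in siC_XMU; adjusted p = 0.0428) were called higher with the knockdown. Fibroblast markers summed to 23.7 to 138 CPM in siYT_XMU, 17.6 to 29.9 CPM in siC_XMU, 24.2 to 70.3 CPM in siYT_DMSO and 11.4 to 24.3 CPM in siC_DMSO. Of 7 tested, only PDGFRA was called with the knockdown, higher in DMSO (edgeR adjusted p = 0.00334) and in XMU-MP1 (adjusted p = 0.0303). Leukocyte markers, of which CD68, CD14 and LYZ made up most, summed to 71 to 206 CPM in siYT_XMU, 20.1 to 29.9 CPM in siC_XMU, 84.8 to 155 CPM in siYT_DMSO and 44.5 to 62.3 CPM in siC_DMSO. CD3E was at 0 in 11 libraries, and PTPRC and LYZ each in 9, though they reached 5.59 and 58.6 CPM in siYT_XMU. The 3 tested were all called higher with the knockdown in XMU-MP1, CD68 (edgeR adjusted p = 0.000392), CD14 (adjusted p = 0.0037) and ITGAM (adjusted p = 0.00454). In DMSO only CD68 was called, higher (adjusted p = 0.000122). CD14 averaged 33.7 ± 15.9 CPM in siYT_XMU and 10.1 ± 3.93 CPM in siC_XMU. In DMSO it averaged 30.6 ± 9.62 CPM in siYT and 42.9 ± 8.59 CPM in siC (SD, n = 3 each). With XMU-MP1 in control siRNA, 1 of the 3 leukocyte markers tested was called lower, and 0 after the knockdown. No fibroblast or endothelial marker was called with XMU-MP1 in either arm. The leukocyte and endothelial sums of siC_XMU lay below those of siC_DMSO. The leukocyte sums of the siYT libraries lay above those of the siC libraries with either treatment, and the part of these markers in the results below was not tested.

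Of the 8 genes, 7 passed the filter on low counts and were tested among 18143 genes with edgeR's quasi-likelihood test, calling a gene at a Benjamini-Hochberg adjusted p under 0.05. ID4 had no read in any of the 12 libraries. A count of 0 allows up to 0.0382 to 0.622 CPM in these libraries, so its level was below detection at this depth. With 3 libraries a group, an exact permutation test of one gene cannot give a p below 0.1, so calls rest on the fit across all genes.

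In short, ID2 and BAMBI were higher in CPM in both groups with XMU-MP1 than in both groups with DMSO. The call of BAMBI after the knockdown held in 10 of 20 alternatives. Means of ID1, ID3, SMAD7 and BMP2 were lowest where the knockdown and XMU-MP1 met. ID1 was called lower with XMU-MP1 after the knockdown, and lay lower without a call in control siRNA. With the knockdown in XMU-MP1, SMAD7 kept its lower call in all 20 alternatives, BMP2 in 8 of 20 and ID3 in 8 of 19. The plot of levels by library shows the 7 tested genes side by side.

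**Figure D1:**
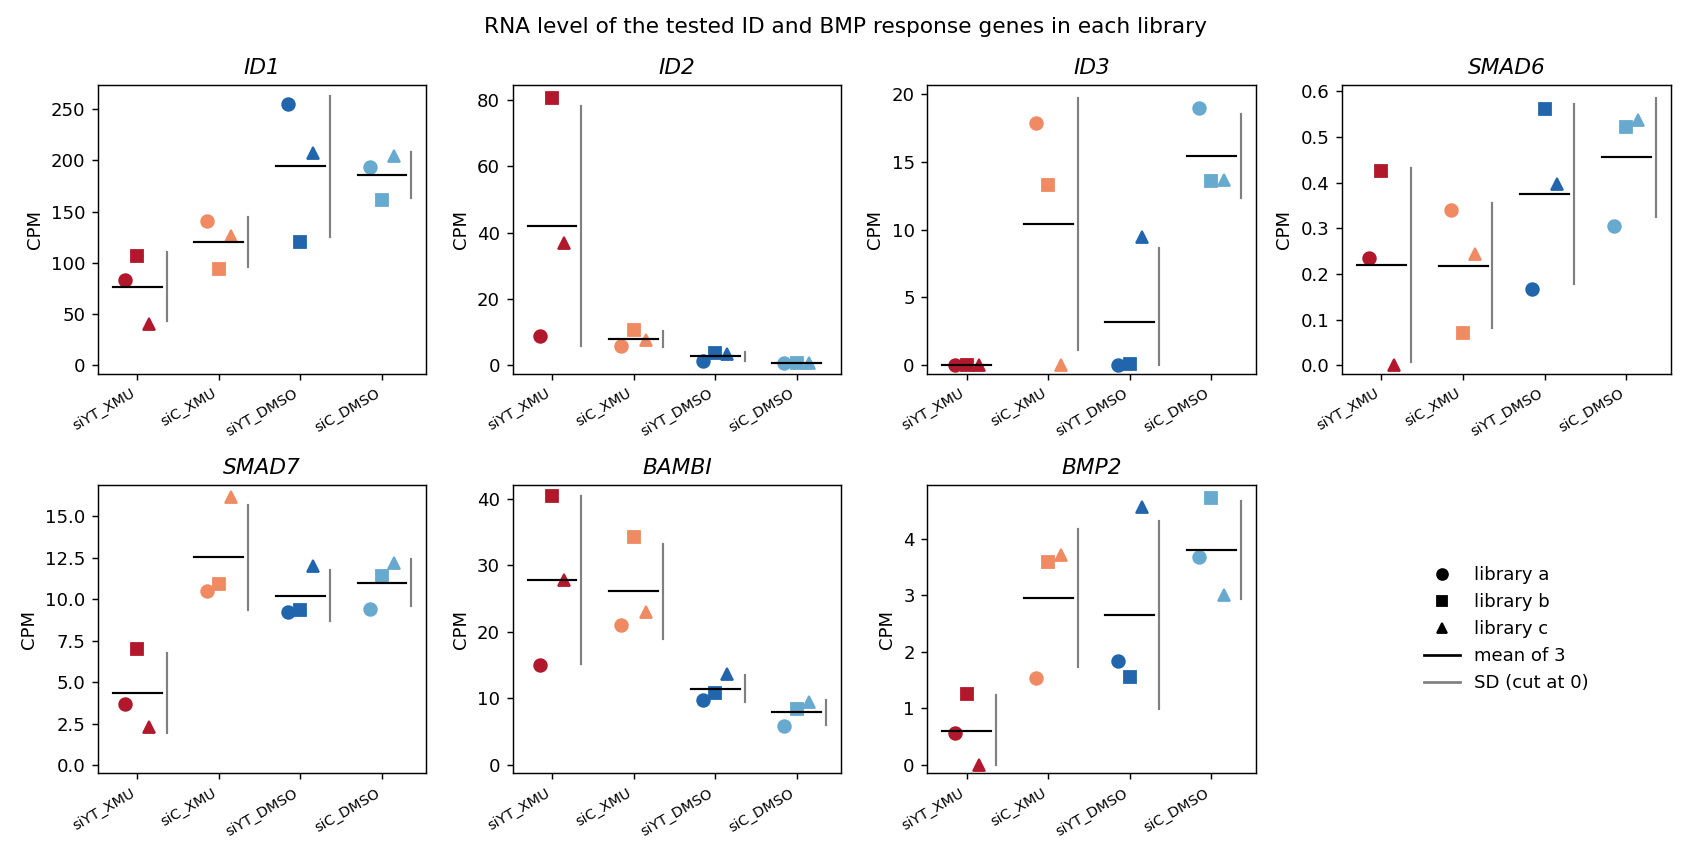
CPM of the 7 tested genes (1 panel a gene, each with its own axis) in the 3 libraries of each group, with the mean as a black line and the SD, cut at 0, as a grey line. ID2 and BAMBI are higher in both groups with XMU-MP1, and ID3 is at or near 0 in 6 libraries.

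The counts over the 7 tested genes are read against the whole table, and each log2 fold change below is siYT over siC or XMU-MP1 over DMSO. With XMU-MP1 in control siRNA 2 of 7 were called, ID2 and BAMBI, both higher. There 9.26% of all genes tested were called (4% of all genes higher and 5.26% lower), and 3 of 7 had libraries that did not overlap between the groups (ID2, BAMBI and ID1), beside 40.7% of all genes. With XMU-MP1 after the knockdown 3 of 7 were called, ID2 and BAMBI higher and ID1 lower, where 12.1% of all genes were called (4.19% higher and 7.92% lower), and 5 of 7 had no overlap, beside 27.3% of all genes. With the knockdown in DMSO 1 of 7 was called, ID2, higher, where 32.1% of all genes were called (16.1% higher and 16% lower), and 3 of 7 had no overlap (ID2, BAMBI and ID3), where 54.1% of all genes had none. With the knockdown in XMU-MP1 4 of 7 were called, ID2 higher and ID3, SMAD7 and BMP2 lower, where 36.4% of all genes were called (17.7% higher and 18.6% lower), and 2 of 7 had no overlap, beside 45.6%. In no comparison are such counts, over so few genes, read as a result about these genes as a set. The genes were chosen with earlier results of these data known.

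The interaction (the effect of XMU-MP1 after the knockdown minus its effect in control siRNA) was called for 0 of 7 genes by edgeR, where 2.59% of all genes were called (0.86% higher and 1.73% lower). DESeq2 called 0 too, and 1 of 7 (SMAD7) had an unadjusted p under 0.05. The median log2 fold change of the 7 was -0.36 beside -0.0215 for all genes tested with XMU-MP1 in control siRNA, -1.20 beside 0.018 with XMU-MP1 after the knockdown, -0.11 beside 0.0174 with the knockdown in DMSO and -0.64 beside 0.0422 with the knockdown in XMU-MP1. ID3, which has no finite fold against siYT_XMU, lies below these medians also at the bound given below. Without siYT_XMU library c the median was -0.937 with XMU-MP1 after the knockdown and -0.345 with the knockdown in XMU-MP1. In that fit, 2 were called with XMU-MP1 in control siRNA, 2 with XMU-MP1 after the knockdown, 1 with the knockdown in DMSO, 2 with the knockdown in XMU-MP1 and 0 in the interaction. Of all 19211 genes tested in that fit, 13.9, 15, 37, 38.1 and 5.24% were called in the same comparisons, each a larger share than with the library. These comparisons share groups, so their values stand side by side and no overlap between them is read as a result.

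**Figure D2:**
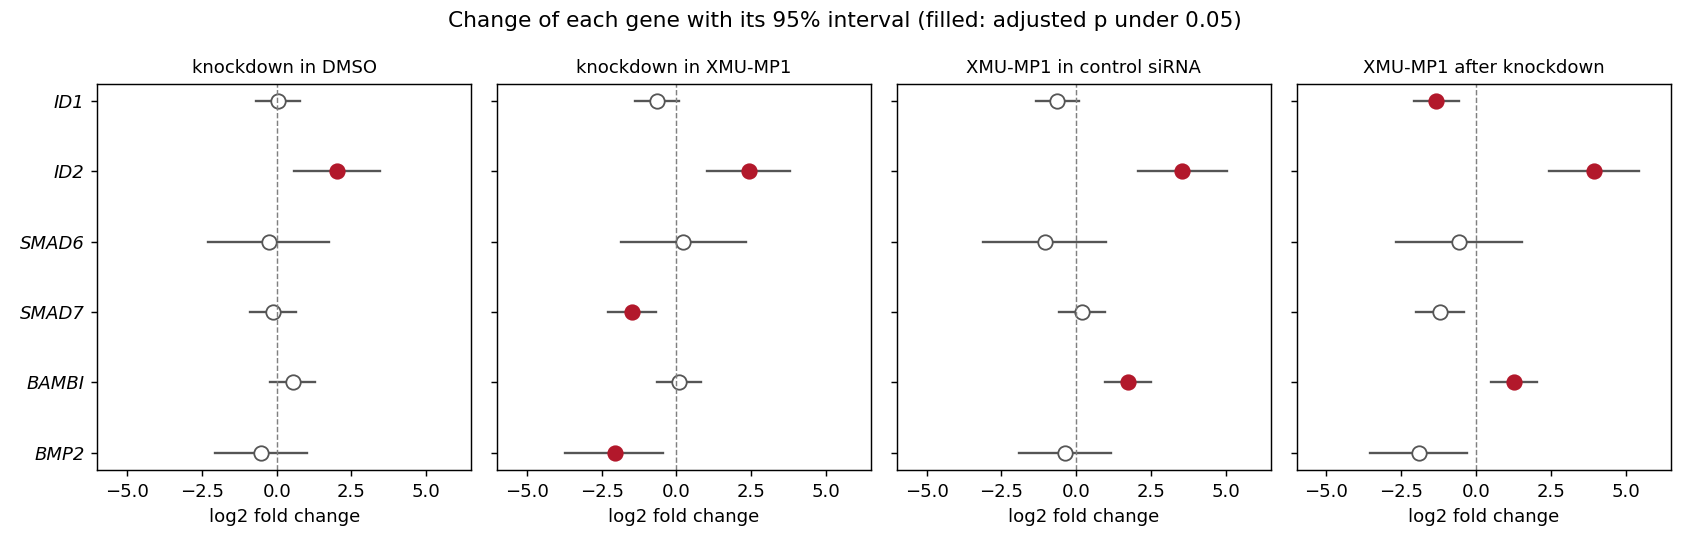
Log2 fold change (x axis) of 6 of the 7 tested genes in each comparison, with 95% intervals and filled points for an adjusted p under 0.05. ID3 is left out since it is at 0 in all siYT_XMU libraries. ID2 is filled in all 4 comparisons.

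ID2 encodes an inhibitor of E proteins that mice need for the milk-producing lobules of the mammary gland to form. It had 5.67, 10.6 and 7.48 CPM in siC_XMU libraries a, b and c, against 0.674, 0.739 and 0.606 CPM in siC_DMSO. Every library with XMU-MP1 was above every library with DMSO. In bulk RNA, a change in the share of cells that carry a transcript and a change in its amount per cell cannot be told apart. The log2 change was 3.55 with a standard error (SE) of 0.69, which is 11.7-fold (edgeR adjusted p = 0.0082), and the call held in all 20 alternatives, with adjusted p from 3.93e-07 to 0.0441.

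After the YAP and TAZ knockdown, ID2 was higher again with XMU-MP1. It had 8.66, 80.5 and 36.9 CPM in siYT_XMU libraries a, b and c, against 1.21, 3.6 and 3.31 CPM in siYT_DMSO. The groups did not overlap, and library b was the highest of siYT_XMU and library a the lowest. The log2 change was 3.94 ± 0.69 (SE; 15.4-fold, edgeR adjusted p = 0.00368), it was called in all 20 alternatives, and without library c it was 4.03 (adjusted p = 0.00735). The XMU-MP1 effects of the siRNA arms differed by 0.39 on the log2 scale, with a 95% interval from -1.55 to 2.33 (edgeR adjusted p = 0.883), which leaves room for a difference in either direction.

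ID2 was also called higher in siYT than in siC, with either DMSO or XMU-MP1. In DMSO, siYT libraries had 1.21, 3.6 and 3.31 CPM and siC libraries 0.674, 0.739 and 0.606 CPM, with no overlap, a log2 change of 2.02 ± 0.65 (SE; 4.05-fold, edgeR adjusted p = 0.0333). That call was lost in 7 of 20 alternatives, with adjusted p up to 0.278: on FPKM, without any 1 of the siC_DMSO libraries, and without siYT_DMSO library b or c. In XMU-MP1, the log2 change was 2.41 ± 0.64 (SE; 5.31-fold, edgeR adjusted p = 0.0119), and the libraries overlapped, since siYT_XMU library a, at 8.66 CPM, lay below siC_XMU library b, at 10.6 CPM. Without siYT_XMU library b the change was 1.5 and no longer called (edgeR adjusted p = 0.0766; adjusted p over the alternatives from 0.000187 to 0.11), and the call was also lost on FPKM.

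Across the groups the mean of ID2 was 42 ± 36.2 CPM in siYT_XMU, 7.92 ± 2.5 CPM in siC_XMU, 2.7 ± 1.3 CPM in siYT_DMSO and 0.673 ± 0.0667 CPM in siC_DMSO (SD, n = 3 each). Libraries of siC_DMSO lay below those of siYT_DMSO, and those of siYT_DMSO below those of siC_XMU, without overlap, while siC_XMU and siYT_XMU overlapped.

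BAMBI, which encodes a decoy receptor for BMP, activin and TGF-beta type I receptors, followed the same order. It had 21.1, 34.3 and 23 CPM in siC_XMU, against 5.9, 8.35 and 9.52 CPM in siC_DMSO. No library of the first group overlapped the second, and the log2 change was 1.72 ± 0.35 (SE; 3.3-fold, edgeR adjusted p = 0.0111). The call was lost without siC_DMSO library a (adjusted p = 0.0557) and without siC_XMU library b (adjusted p = 0.0594), the lowest and the highest of their groups. It held in the other 18 of 20 alternatives, with adjusted p from 4e-05.

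After the knockdown, BAMBI had 15.1, 40.4 and 27.8 CPM in siYT_XMU, against 9.8, 10.8 and 13.7 CPM in siYT_DMSO. The groups did not overlap in CPM, but on FPKM siYT_XMU library a (7.85) lay below siYT_DMSO library c (8.05). The log2 change was 1.28 ± 0.35 (SE; 2.42-fold, edgeR adjusted p = 0.0343). Without siYT_XMU library c the change was 1.27 with an adjusted p of 0.051, and the call held in 10 of 20 alternatives (adjusted p from 0.002 to 0.165). It was lost on FPKM, when only the compared groups were fitted, and without siC_DMSO library b, siC_XMU library c, any 1 of the siYT_DMSO libraries, or siYT_XMU library b or c. The difference of the 2 XMU-MP1 effects was -0.45 on the log2 scale, with a 95% interval from -1.5 to 0.61 (edgeR adjusted p = 0.694). In DMSO, every siYT library was above every siC library of BAMBI, but the log2 change of 0.53 did not pass the test (edgeR adjusted p = 0.271). With the knockdown in XMU-MP1 the log2 change was 0.088 (edgeR adjusted p = 0.867), and it was below 0 on FPKM (-0.51 with a pseudocount of 0.1) and without siC_XMU library a or c or siYT_XMU library b.

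The sequences just upstream of ID1, ID2 and BAMBI are printed to let the genes that went up with XMU-MP1 (ID2 and BAMBI) be set beside ID1, which did not. They are the 250 bases before the annotated start, from RefSeq on GRCh38.p14, and the start is the one the expression table gives for each gene. Capitals mark GGCGCC, a GC-rich element that BMP-activated SMADs bind, and GTCT, the SMAD-binding element, on either strand (AGAC is GTCT on the other strand), and no marked sites overlap.

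ID1 (chr20:31605039-31605288, plus strand): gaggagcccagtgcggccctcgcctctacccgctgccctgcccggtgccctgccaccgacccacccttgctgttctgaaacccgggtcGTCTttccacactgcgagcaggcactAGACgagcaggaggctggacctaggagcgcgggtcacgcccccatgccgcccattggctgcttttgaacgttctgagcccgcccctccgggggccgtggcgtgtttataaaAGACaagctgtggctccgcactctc
ID2 (chr2:8681806-8682055, plus strand): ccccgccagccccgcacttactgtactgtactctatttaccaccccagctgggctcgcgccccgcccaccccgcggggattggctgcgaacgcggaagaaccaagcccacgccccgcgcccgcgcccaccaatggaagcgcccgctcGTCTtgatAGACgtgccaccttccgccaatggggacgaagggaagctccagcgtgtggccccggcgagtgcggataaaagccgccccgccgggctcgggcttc
BAMBI (chr10:28677271-28677520, plus strand): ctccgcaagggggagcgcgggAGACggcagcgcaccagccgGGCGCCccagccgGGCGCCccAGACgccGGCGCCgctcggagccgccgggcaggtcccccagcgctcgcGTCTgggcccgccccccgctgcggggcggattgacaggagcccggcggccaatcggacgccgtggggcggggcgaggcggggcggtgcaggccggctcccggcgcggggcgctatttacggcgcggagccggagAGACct

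Windows of 300 bases, 250 before and 50 after the start, were found for 7 of the 8 genes, and BMP2 is named only. GGCGCC occurred 3 times in that of BAMBI and 0 times in those of ID1, ID2, ID3, ID4, SMAD6 and SMAD7, beside 19.2% of 35116 windows of this length that hold it. GTCT occurred 3 times for ID1, 2 times for ID2 and 4 times for BAMBI, between 1 and 5 times in the windows of the others, and 84% of all windows hold it. These are matches of letters, and a window without one says nothing of binding elsewhere in the gene.

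ID1 is a classical immediate BMP target, known for holding back differentiation, and had the highest FPKM of the ID genes in all 12 libraries. After the knockdown it had 83, 107 and 40.2 CPM in siYT_XMU, against 255, 120 and 207 CPM in siYT_DMSO. All siYT_XMU libraries were below all siYT_DMSO libraries, and the log2 change was -1.33 ± 0.34 (SE; 2.51-fold lower, edgeR adjusted p = 0.0264). Without library c, the lowest of its group, it was -1.03 (adjusted p = 0.0418). The call was lost in 4 of 20 alternatives, with adjusted p from 0.00248 to 0.09 over all of them: when only the compared groups were fitted, without siYT_DMSO library a or c, and without siYT_XMU library a.

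In the control siRNA arm ID1 had 141, 93.8 and 126 CPM in siC_XMU, against 193, 161 and 204 CPM in siC_DMSO. These did not overlap either, and the log2 change of -0.63 ± 0.34 (SE) did not pass the test (edgeR adjusted p = 0.29). It was called in 1 of 20 alternatives, where only the compared groups were fitted, with an adjusted p of 0.0362 in a range up to 0.598. The difference of the 2 XMU-MP1 effects was -0.70 with a 95% interval from -1.73 to 0.34 (edgeR adjusted p = 0.477), and -0.396 without siYT_XMU library c. The knockdown in DMSO did not move ID1 past the test, where the log2 change was 0.0558 (edgeR adjusted p = 0.928). It was below 0 there on FPKM (-0.19) and without siC_DMSO library b or siYT_DMSO library a. In XMU-MP1 the knockdown gave -0.64 (edgeR adjusted p = 0.158), which passed only on FPKM, with adjusted p of 0.0436 and 0.0456 in a range up to 0.376. Without siYT_XMU library c that change was -0.345.

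The ratio of ID2 to ID1, per length in FPKM, sets the pair side by side. ID2 was 9.8, 70.7 and 86.5% of ID1 in siYT_XMU, 3.76, 10.6 and 5.59% in siC_XMU, 0.445, 2.81 and 1.5% in siYT_DMSO, and 0.323, 0.427 and 0.273% in siC_DMSO. Every library with XMU-MP1 had a larger share than every library with DMSO. The values were computed after the levels were seen, so no test was run on them.

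**Figure D3:**
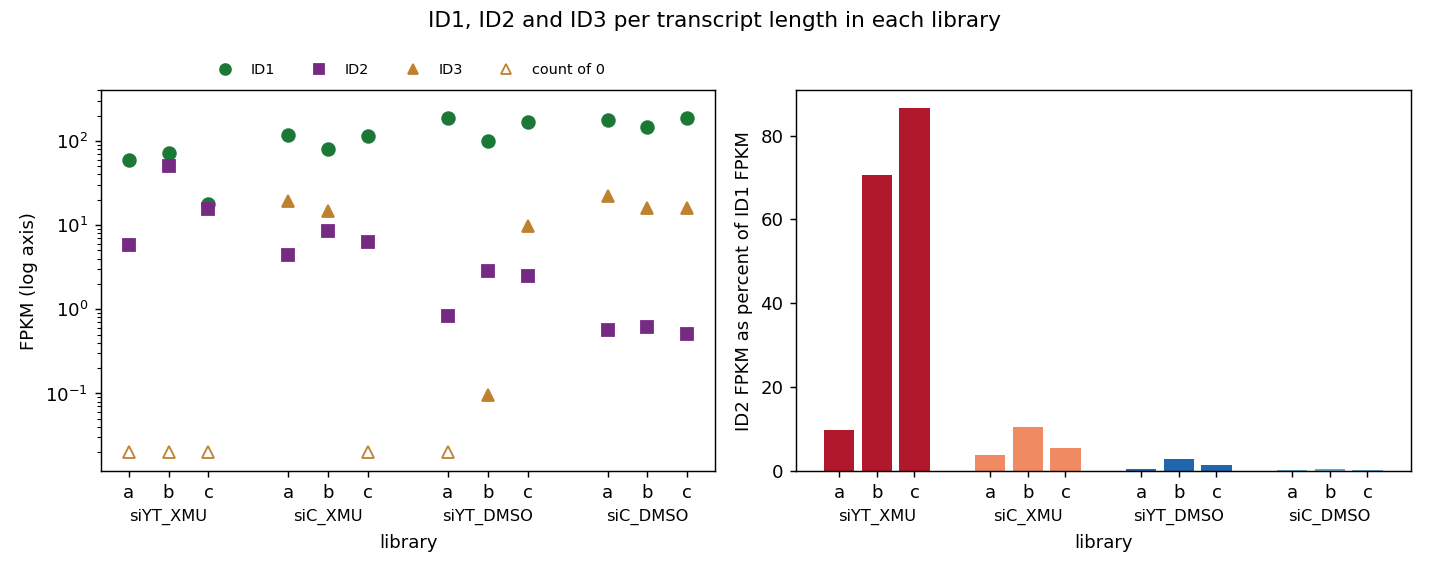
Left, FPKM of ID1, ID2 and ID3 on a log axis in each library, with open triangles for ID3 counts of 0 drawn at the bottom. Right, ID2 FPKM as a percent of ID1 FPKM, which reaches 86.5% in siYT_XMU and stays at or below 0.427% in siC_DMSO.

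ID3, which BMPs often induce together with ID1, was read at 9.46 to 19 CPM in 6 libraries and at 0 to 0.0967 CPM in the other 6. Counts were 0, 0 and 0 in siYT_XMU libraries a, b and c, 893, 765 and 0 in siC_XMU, 0, 5 and 572 in siYT_DMSO, and 1242, 1065 and 997 in siC_DMSO. Of the 18143 genes tested, 180 (0.992%) had a library at 0 beside one with at least 500 counts in the same group, and 59 did so in 2 or more groups, as ID3 did. The sources used here do not give the rule by which reads were assigned, so a 0 is listed as such and need not mean that the RNA was absent. No other gene of the table overlaps the position of ID3.

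In XMU-MP1, ID3 was called lower with the knockdown (edgeR adjusted p = 0.039), although library c of siC_XMU was also at 0, so the groups overlap at that value. If each 0 in siYT_XMU stands for at most the floor of 3 counts, its mean was at least 40.7-fold lower than that of siC_XMU. That bound is set mostly by the shallow siYT_XMU library c, and without that library the difference was at least 143-fold. These bounds cover counting error only, and they do not hold if a 0 comes from how reads were assigned. The call was lost in 11 of 19 alternatives, with adjusted p from 0.0024 to 0.107, among them the fits without siYT_XMU library c (adjusted p = 0.0635), any other siYT_XMU library, any siC_DMSO library, or siC_XMU library a or b. After the knockdown, ID3 was at least 12.5-fold lower in siYT_XMU than in siYT_DMSO by the same floor (at least 43.6-fold without siYT_XMU library c). That difference rests on siYT_DMSO library c and did not pass the test (edgeR adjusted p = 0.139). It passed in 1 of 19 alternatives, DESeq2 (adjusted p = 0.0265). In DMSO every siYT library was below every siC library, and the test did not pass (edgeR adjusted p = 0.412), but it passed without siYT_DMSO library c (adjusted p = 0.0387 in a range up to 0.61). With XMU-MP1 in control siRNA the log2 change was -0.57 (edgeR adjusted p = 0.921) and 0.0136 without siC_XMU library c.

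Among the inhibitors inside the cell, SMAD7, which blocks type I receptors and recruits the ubiquitin ligases SMURF1 and SMURF2 to them, was lower with the knockdown in XMU-MP1. It had 3.7, 6.98 and 2.28 CPM in siYT_XMU, against 10.5, 10.9 and 16.2 CPM in siC_XMU. All siYT libraries lay below all siC libraries, and the log2 change was -1.49 ± 0.37 (SE; 2.81-fold lower, edgeR adjusted p = 0.00762). It was called in all 20 alternatives (adjusted p from 0.000298 to 0.0398) and was -1.23 without siYT_XMU library c (adjusted p = 0.0128).

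In DMSO the knockdown left SMAD7 at 9.26, 9.38 and 12 CPM in siYT libraries, against 9.43, 11.4 and 12.2 CPM in siC libraries. The log2 change was -0.11, with a 95% interval from -0.88 to 0.66 (edgeR adjusted p = 0.853). Set the other way, XMU-MP1 after the knockdown gave a log2 change of -1.20 in SMAD7, whose siYT_XMU libraries were all below the siYT_DMSO libraries, but the test did not pass (edgeR adjusted p = 0.0528). It passed in 5 of 20 alternatives, with adjusted p from 0.00962 to 0.167, namely DESeq2, the stricter filter, both FPKM fits and the fit without siYT_XMU library b. Without siYT_XMU library c the change was -0.937. In control siRNA the XMU-MP1 change was 0.18 (edgeR adjusted p = 0.843), and -0.0461 without siC_XMU library c. The interaction was -1.38 with a 95% interval from -2.49 to -0.28 and an unadjusted p of 0.0186, and did not pass over all genes (edgeR adjusted p = 0.168). It was called without siYT_XMU library b (-1.92, adjusted p = 0.0454, in a range up to 0.357), and was -1.12 without siYT_XMU library c.

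SMAD6, the inhibitor with preference for BMP receptors, was at the limit of what these libraries count, with 224 reads in all. It had 0.235, 0.425 and 0 CPM in siYT_XMU, 0.341, 0.0697 and 0.243 CPM in siC_XMU, 0.167, 0.561 and 0.397 CPM in siYT_DMSO and 0.306, 0.523 and 0.537 CPM in siC_DMSO. The groups overlapped in every comparison and no call was made, so a difference was not detectable at this depth.

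BMP2, the secreted ligand, was also low. It had 0.558, 1.26 and 0 CPM in siYT_XMU, against 1.54, 3.59 and 3.72 CPM in siC_XMU. All siYT libraries lay below all siC libraries, and the log2 change was -2.07 ± 0.75 (SE; 4.2-fold lower, edgeR adjusted p = 0.0482), close to the threshold. The call was lost in 12 of 20 alternatives (adjusted p from 0.00922 to 0.125), among them the fit without siYT_XMU library c (-1.69, adjusted p = 0.0545). It was also lost without siYT_XMU library a, any siC_DMSO library, siC_XMU library b or c, or siYT_DMSO library a or b, with a replicate block, with RLE scaling and when only the compared groups were fitted, and on log2(FPKM + 1) the change was -0.70. With XMU-MP1 after the knockdown, BMP2 had 0.558, 1.26 and 0 CPM in siYT_XMU, against 1.84, 1.55 and 4.57 CPM in siYT_DMSO, all lower, with a log2 change of -1.92 that did not pass the test (edgeR adjusted p = 0.123). That change was -1.54 without siYT_XMU library c, and it passed in 2 of 20 alternatives (adjusted p from 0.0317 to 0.374). In DMSO (-0.52) and in control siRNA (-0.36) the groups overlapped and the changes of BMP2 did not pass either.

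By Pearson correlation of log2(CPM + 1) over the 12 libraries, the genes most like each of the 7 were found among tested genes whose group mean reached an FPKM of 5 or more somewhere. The points share groups and depth, and no p is given. ID2 was most like TENT5C (r = 0.976) and PPP1R15A (r = 0.961). ID1 was most like RRS1 (0.932) and LINC00673 (0.931), and BAMBI was most like EIF4G2 (0.943) and SPTAN1 (0.94). SMAD7 was most like C8orf58 (0.967) and RIC8A (0.943), BMP2 most like ZNF384 (0.944) and CUL1 (0.929), ID3 most like CAAP1 (0.909), and SMAD6, with the lowest values, most like TMEM60 (0.844) and FASTKD2 (0.837). Within the 7, ID2 and BAMBI had r = 0.904, SMAD7 and BMP2 had r = 0.897, and ID1 and ID2 had r = -0.762.

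The rest of the pathway was read from lists of ligands, receptors, SMAD transducers, extracellular antagonists and related proteins, E proteins and further targets, of which 48 genes besides the 8 were tested. Of these 48, 41.7% were called with the knockdown in XMU-MP1, 45.8% with it in DMSO, 27.1% with XMU-MP1 after the knockdown and 14.6% with XMU-MP1 in control siRNA, beside 36.4, 32.1, 12.1 and 9.26% of all genes. The genes were listed with earlier results known, so no excess over all genes is read from these shares. Among SMAD transducers and regulators (13 of 14 tested), 6 were lower and 0 higher with the knockdown in XMU-MP1, and 3 lower and 3 higher with it in DMSO. With XMU-MP1, 5 were lower and 1 higher after the knockdown, and 1 lower and 2 higher in control siRNA. Of these calls, PPM1A lower after the knockdown was lost in 16 of 20 alternatives, and SMURF1 higher in control siRNA in 7 of 20. Over all genes 18.6% were lower and 17.7% higher in the first of these comparisons, 16 and 16.1% in the second, 7.92 and 4.19% in the third and 5.26 and 4% in the last. With 13 genes, the 6 called with the knockdown in either treatment are not read as more than these shares. The median log2 change of the tested genes of this list was -0.61 with the knockdown in XMU-MP1, beside 0.0422 for all genes. SMAD1, which BMP receptors phosphorylate, averaged 2.24 ± 0.539 CPM in siYT_XMU and 14.8 ± 2.36 CPM in siC_XMU, a log2 change of -2.73 (edgeR adjusted p = 3.18e-05), and 8.39 ± 1.98 CPM in siYT_DMSO and 24.6 ± 2.12 CPM in siC_DMSO, a change of -1.55 (adjusted p = 0.000825). SMAD4, the shared partner, averaged 23.2 ± 3.64 CPM in siYT_XMU and 59 ± 7.23 CPM in siC_XMU (-1.35, adjusted p = 0.000224). SMAD5, SMURF2, SKI and CTDSP1 were the other genes of this list lower there. SKI, a repressor that binds SMADs, was higher with XMU-MP1 in control siRNA, at 270 ± 54.3 CPM in siC_XMU and 60.7 ± 8.15 CPM in siC_DMSO (2.15, edgeR adjusted p = 0.000201), and after knockdown, at 177 ± 20.7 CPM in siYT_XMU and 78.6 ± 9.41 CPM in siYT_DMSO (1.17, adjusted p = 0.00202; SD, n = 3 each). CTDSP1, a phosphatase that acts on SMADs, was lower in both, with log2 changes of -0.999 in control siRNA and -1.92 after the knockdown.

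Of the list of extracellular antagonists and related proteins, which holds CRIM1 and KCP, 8 of 18 were tested. The knockdown in DMSO left 5 lower and 1 higher, where 16% of all genes were lower and 16.1% higher, and the list's median log2 change was -1.68, beside 0.0174 for all genes. With XMU-MP1 0 were called in control siRNA and 1, CRIM1, was higher after the knockdown (1.03, edgeR adjusted p = 0.0333). The CRIM1 call was lost in 13 of 20 alternatives, among them the fit without siYT_XMU library c (0.65, adjusted p = 0.0714), in which NOG was called lower with XMU-MP1 in control siRNA (-3.03, adjusted p = 0.0469). FSTL1, a follistatin-like protein, averaged 1.58 ± 0.649 CPM in siYT_DMSO and 64.9 ± 10.5 CPM in siC_DMSO (-5.39, edgeR adjusted p = 0.00122), and CRIM1, which binds BMPs at the cell surface, averaged 17.9 ± 5.13 CPM in siYT_DMSO and 77.9 ± 2.87 CPM in siC_DMSO (-2.12, adjusted p = 0.000167). FST, TWSG1 and NOG were lower too, and NBL1 was higher. NOG had a mean of 0.17 CPM in siYT_DMSO, with a library at 0, and 3.08 CPM in siC_DMSO. With the knockdown in XMU-MP1 4 were lower (FSTL1, TWSG1, FST and CRIM1) and 2 higher, NBL1 and KCP. KCP was at 0 in all siC_XMU libraries and at 0 to 1.97 CPM in siYT_XMU, and its call was lost in 6 of 18 alternatives. Both lists had the same counts without siYT_XMU library c in the knockdown comparisons.

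Among ligands, 5 of 14 were tested, and 1 was higher and 1 lower with the knockdown in DMSO, 1 higher and 2 lower with it in XMU-MP1, 1 higher with XMU-MP1 in control siRNA and 0 called with XMU-MP1 after the knockdown. BMP6 was higher with the knockdown in DMSO, at 11.3 ± 6.9 CPM in siYT_DMSO and 0.325 ± 0.0581 CPM in siC_DMSO (5.11, edgeR adjusted p = 2.97e-05), and in XMU-MP1, at 9.11 ± 0.574 CPM in siYT_XMU and 1.28 ± 0.167 CPM in siC_XMU (2.83, adjusted p = 0.000776). It was also higher with XMU-MP1 in control siRNA (1.96, edgeR adjusted p = 0.0248), a call lost in 8 of 20 alternatives. GDF11 was lower with the knockdown in both, and BMP4 with the knockdown in XMU-MP1 (-2.09, adjusted p = 0.0482), a call lost in 14 of 20 alternatives. Of 10 tested receptors and co-receptors, BMPR1A, a type I BMP receptor, averaged 8.95 ± 4.35 CPM in siYT_XMU and 26.9 ± 1.91 CPM in siC_XMU (-1.56, edgeR adjusted p = 0.00182); RGMB was lower with the knockdown in both, BMPR1B lower and BMPR2 higher in DMSO. ENG was lower with XMU-MP1 in control siRNA, and after the knockdown BMPR1A was lower and RGMB higher with XMU-MP1. Among the 3 E proteins, the partners ID proteins bind, TCF12 was lower with the knockdown in DMSO (-1.04) and XMU-MP1 (-1.64) and with XMU-MP1 after knockdown (-0.81), while TCF3 and TCF4 were not called.

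Among 12 further BMP-SMAD targets, 9 were tested, and 2 were higher and 2 lower with the knockdown in DMSO, 1 higher and 1 lower with it in XMU-MP1, 2 higher with XMU-MP1 in control siRNA, and 1 higher and 2 lower with XMU-MP1 after the knockdown. DLX3, a homeobox gene, averaged 17.9 ± 0.807 CPM in siYT_DMSO and 0.744 ± 0.26 CPM in siC_DMSO (4.59, edgeR adjusted p = 0.000626). With XMU-MP1 after the knockdown it averaged 0.763 ± 0.903 CPM in siYT_XMU, against 17.9 ± 0.807 CPM in siYT_DMSO (-4.32, adjusted p = 0.00366). MSX2 was higher with the knockdown in DMSO (0.81) and with XMU-MP1 in control siRNA (0.97), calls lost in 10 and 12 of 20 alternatives, and lower with the knockdown in XMU-MP1 (-1.36) and with XMU-MP1 after the knockdown (-1.20). MSX1 and RUNX2 were lower with the knockdown in DMSO, the call of RUNX2 being lost in 9 of 20 alternatives, DLX2 was higher with it in XMU-MP1 (3.39), TBX3 was higher with XMU-MP1 in control siRNA, also lost in 9 of 20, and MSX1 was higher with XMU-MP1 after the knockdown (2.36). Of the 66 calls over these lists, 35 held in every alternative tried, and 31 were lost in at least 1. The lists are given as counts, without a test of the list.

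Without siYT_XMU library c, 1 of the 66 calls, CRIM1 above, was lost and 14 were gained. RUNX2 was then lower with the knockdown in XMU-MP1 (-2.65, edgeR adjusted p = 0.032, against -0.98 with the library), and with XMU-MP1 after the knockdown BMPR1B (1.45, adjusted p = 0.0471) and DLX2 (2.51, adjusted p = 0.0481) were higher. ENG (adjusted p = 0.0447) and TCF4 (adjusted p = 0.0213) were then called lower with the knockdown in DMSO, a comparison whose groups do not hold that library. The same holds for 6 calls gained with XMU-MP1 in control siRNA, GDF11, ACVR2A and PPM1A higher and ACVR2B, TCF4 and NOG lower, with adjusted p from 0.0172 to 0.0483. The other 3 were in the interaction.

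**Figure D4:**
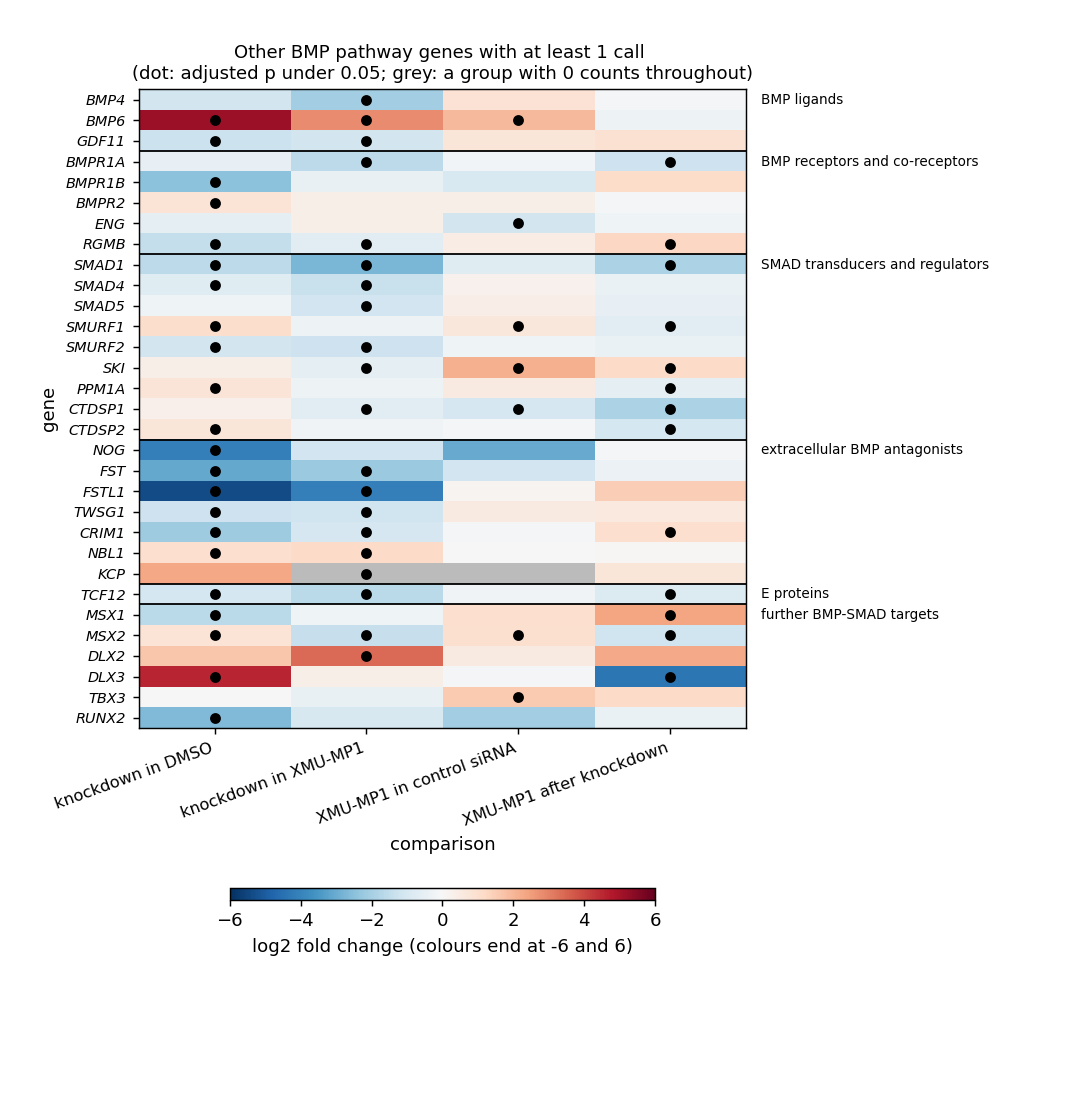
Log2 fold change, as colour, of other pathway genes called at least once, grouped by list, in the 4 comparisons. Dots mark an adjusted p under 0.05 and grey a comparison with a group at 0 in all libraries. SMAD1 is called lower in 3 columns and FSTL1 in the knockdown columns.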

How the data were processed

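RNA sequencing of polyadenylated RNA was deposited as 1 table for 12 libraries. Per the file headers, the authors gave whole-number counts and FPKM, fragments scaled to transcript length and depth, for 46931 genes, and all 24 value columns were used. The submitters' processing notes name cutadapt, FastQC, HISAT2, StringTie, edgeR and the build GRCh38.p13, without roles or versions. The rule of read assignment is not given in the sources used here, although the labels name a stranded kit. An FPKM of 1e-04 stands for a count of 0.

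The counts were fitted with edgeR 4.0.16 in R 4.3.3, after filterByExpr (18143 genes kept) and TMM scaling, in 1 quasi-likelihood model of the 4 groups over 12 libraries. Residual degrees of freedom were 8, prior degrees of freedom 3.85 and the common dispersion 0.232. Tests were two-sided, p-values were Benjamini-Hochberg adjusted over all tested genes, the prior count was 0.125, and the standard error is the log2 fold change divided by the root of the F statistic. The fit was run on simulated counts drawn with a dispersion lower than 0.232, and read for the knockdown in DMSO only. That run checks that the fit works and not its error rate on data this variable. Alternatives were a replicate block, RLE scaling, no filter, a filter of 1 CPM in 3 libraries, DESeq2 1.42.0, fits of the compared groups only, limma 3.58.1 on log2(FPKM + 0.1) and log2(FPKM + 1), and leaving out each library. For the other pathway genes all of these but the fit without siYT_XMU library c were added after the data were seen.

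Depth sets a floor of 3 counts per library, 0.0382 to 0.622 CPM, which covers counting error only. The labels do not say that the letters a, b and c are separate cultures, and p-values then measure only the spread between samples, which may be technical. Promoter windows came from RefSeq on GRCh38.p14 and were searched with Python 3.11.15. The genes and lists were chosen with earlier results of these data known. The naming rule takes all 8 genes, up to 4 called genes per list and comparison by adjusted p, YAP1, WWTR1 and TP63, and the 2 genes most like each tested gene, of which 1 is not reported here. Further called genes of the lists, chosen after their values were seen, are named to complete their counts.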

Additional observations from a re-analysis of the deposited data

Results flagged for a closer look

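For 4 other genes of the BMP pathway the XMU-MP1 effect differed between the siRNA arms by the interaction test (edgeR, adjusted over all 18143 genes). These were 4 of 48 tested (8.33%), beside 2.59% of all genes. The 48 were listed with earlier results of these data known, so no excess over all genes is read from such shares. Without siYT_XMU library c, 7 of 49 (14.3%) were called, beside 5.24% of all genes, the added 3 being SKI (-1.07, adjusted p = 0.0411), BMPR1B (2.39, adjusted p = 0.0439) and TCF4 (3.31, adjusted p = 0.0416). The difference, which is the log2 effect after the knockdown minus that in control siRNA, was -1.33 for SMURF1 (adjusted p = 0.0117), a ubiquitin ligase that SMAD7 recruits to receptors, and this call held in all 19 alternatives. It was -1.08 for PPM1A (adjusted p = 0.0311), a phosphatase of SMADs, called in 10 of 19 alternatives. It was -2.17 for MSX2 (adjusted p = 0.0199), called in 13 of 19, and -4.21 for DLX3 (adjusted p = 0.0444), called in 9 of 19, both homeobox genes. SMURF1 averaged 65.5 ± 11.2 CPM in siYT_XMU and 103 ± 5.6 CPM in siYT_DMSO, against 79.8 ± 5.44 CPM in siC_XMU and 49.6 ± 2.66 CPM in siC_DMSO (SD, n = 3 each). MSX2 averaged 7.77 ± 1.68 CPM in siYT_XMU and 18.1 ± 4.38 CPM in siYT_DMSO, against 20.2 ± 3.45 CPM in siC_XMU and 10.3 ± 2.11 CPM in siC_DMSO.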

How the results depend on the processing

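Over 686 alternative values for the 7 tested genes, 603 kept direction and side of the threshold, 49 lost a call, 13 gained one and 21 changed sign, none of the last being a called value. SMAD7 with the knockdown in XMU-MP1 and ID2 with XMU-MP1 in both arms kept their calls in all 20. The number of the 7 genes called with the knockdown in DMSO (1) was 0 in both FPKM fits. With the knockdown in XMU-MP1 (4) it was 2 with a replicate block and 2 in the fit of the compared groups only. With XMU-MP1 after the knockdown (3) it was 6 with DESeq2 (all but SMAD6) and 1 in the fit of the compared groups only. Leaving out each library gave 0 to 1, 2 to 4, 1 to 2, 1 to 3 and 0 to 1 for the knockdown in DMSO, the knockdown in XMU-MP1, XMU-MP1 in control siRNA, XMU-MP1 after the knockdown and the interaction. The causes were not tested.

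Signs turned on FPKM with pseudocounts of 0.1 and 1 for ID1 with the knockdown in DMSO (-0.195, -0.193), SMAD6 (-0.0621, -0.00695) and BAMBI (-0.512, -0.474) with the knockdown in XMU-MP1 and the ID3 interaction (0.0164, 0.276), and with 0.1 for the ID2 interaction (-0.129). Leaving out a library gave -0.193 to 0.301 for ID1 and -0.67 to 0.0683 for SMAD6 with the knockdown in DMSO. It gave -0.482 to 0.661 for SMAD6 and -0.311 to 0.384 for BAMBI with the knockdown in XMU-MP1. It gave -1.21 to 0.0136 for ID3 and -0.0461 to 0.306 for SMAD7 with XMU-MP1 in control siRNA, and -0.515 to 0.876 for ID2 and -0.215 to 0.926 for SMAD6 in the interaction.

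FPKM + 0.1 moved the median of all genes to -0.433 with the knockdown in XMU-MP1. All genes called numbered 1680 with XMU-MP1 in control siRNA, against 3094 with DESeq2, 4044 in the compared groups only, 1086 with FPKM + 0.1 and 629 to 2661 without 1 library. After the knockdown they numbered 2198, against 3756 with DESeq2, 866 in the compared groups only, 3302 and 3414 on FPKM, and as few as 1159 without 1 library. For the interaction they numbered 470, against 1832 with DESeq2, 715 with FPKM + 1 and 86 to 1006 without 1 library. The counts of 2661 and 1006 are those without siYT_XMU library c. In the paired check, same-letter residuals correlated at 0.0177 to 0.276, over 0.1 in 9 of 18 pairs of libraries, and for 11 of 12 libraries the best match had the same letter, as a hint from the data. With the replicate block ID3 and BMP2 lost their calls with the knockdown in XMU-MP1 (adjusted p = 0.0616 and 0.0664).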
